A study of Mus musculus with 8 samples.

Results

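The anterior Hox genes described here were the rows of the expression table whose symbol was Hoxa or Hoxb followed by a number from 1 to 5. The pattern found 8 of the 14608 genes in the table, and 7 of the 8 are reported: Hoxa2, Hoxa3, Hoxa4 and Hoxa5 of the HoxA cluster and Hoxb2, Hoxb3 and Hoxb4 of the HoxB cluster. All counts, medians and sums given below are over these 7 genes. The table came from poly(A) RNA-seq of the outflow tract (OFT), the embryonic vessel that joins the ventricles to the aortic sac, at embryonic day 11.5. The 4 mutant libraries were labelled Mib1V943F/+ Gata6STOP/+, compound heterozygotes for a V943F missense allele of Mib1, which encodes a ubiquitin ligase of NOTCH ligands, and a null allele of the cardiac transcription factor Gata6. The 4 other libraries had the genotype label Control and WT in their titles, with no further genotype given. No library of either allele alone was analysed here. Each library was a pool, of 3 individuals per the description of the series. The study's methods state 3 pools for each genotype, each of 4 OFT pairs, whereas 4 libraries per genotype were listed here. Nothing ties a pool to a litter, so p-values measure the spread between these pools.

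Hox genes encode homeodomain transcription factors that give cells their position along the body axis, and within a cluster their order on the chromosome follows the order in which they are switched on from head to tail. Genes of the same number in different clusters are paralogs and form a paralog group. The anterior members are known from the hindbrain, the neural crest, the pharyngeal arches and the posterior part of the second heart field, a pool of progenitors that adds muscle to the OFT. Retinoic acid activates them, and their proteins bind DNA together with PBX and MEIS proteins of the TALE homeodomain family.

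In the OFT, 6 of the 7 anterior Hox genes had a higher mean log2 level in the mutant than in the control libraries, while the log2 fold change was above 0 in 50.4% of all genes. None of the 7 passed the test across all genes. Their median log2 fold change was 0.42, against 0.0010 over all genes. Hoxa3 was higher in every mutant library than in every control library. Hoxa4 and Hoxa5, the most posterior members of the HoxA set, differed more between libraries of the same genotype than between genotypes. A single pool, mutant replicate 1, was the highest library for 6 of the 7 genes, and without it the median log2 fold change was 0.23.

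The genes lie in 2 clusters, placed here on the GRCm38 build with GENCODE gene models. On the minus strand of chromosome 6, Hoxa2 runs from 52162417 to 52164831, Hoxa3 from 52169062 to 52213336, Hoxa4 from 52189671 to 52191753 and Hoxa5 from 52201754 to 52204587. The 44275 bp span of Hoxa3 contains Hoxa4 and Hoxa5, which fall in introns of its longer transcripts and share 0 bp of exon with it. On the plus strand of chromosome 11, Hoxb4 runs from 96318267 to 96321638, Hoxb3 from 96323326 to 96347930 and Hoxb2 from 96350525 to 96354012. The 60 bp reads could in principle tell the members apart, since 0 windows of that length were shared between transcripts of a member and of another Hox gene. On the same strand, 12.2% of the windows of Hoxa2 and 7.11% of those of Hoxa3 were shared with a readthrough gene, Gm28308, that the table does not list. Antisense transcripts covered 51.0% of the windows of Hoxb3, 25.7% of those of Hoxb2, 20.8% of those of Hoxa3 and 12.8% of those of Hoxa4, and whether the counting used the strand of the reads is not given in the sources used here, so those reads may not be told apart.

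Promoter sequence (250 bases before to 50 after the start, from RefSeq, GRCm38.p6) was at hand for 4 of the 7 genes. Those of Hoxa2 and Hoxb4, for which mutant replicates 1 to 3 lay above all controls, and of Hoxa5, which departed from them, are shown for their differing sequence features. Capitals mark 3 motifs searched on both strands: TGATNNAT, the composite site of PBX and HOX proteins, TGACAG, bound by MEIS proteins, and AGGTCA, the core site of retinoic acid receptors. The sequences are given on the strand of the gene, at chr6:52164782-52165081 (minus), chr6:52204538-52204837 (minus) and chr11:96318017-96318316 (plus).
Hoxa2: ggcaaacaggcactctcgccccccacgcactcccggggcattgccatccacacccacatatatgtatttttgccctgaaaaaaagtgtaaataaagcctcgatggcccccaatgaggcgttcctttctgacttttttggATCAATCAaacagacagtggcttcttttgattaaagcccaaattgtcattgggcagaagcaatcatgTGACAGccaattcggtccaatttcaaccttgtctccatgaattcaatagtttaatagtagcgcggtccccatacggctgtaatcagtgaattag
Hoxa5: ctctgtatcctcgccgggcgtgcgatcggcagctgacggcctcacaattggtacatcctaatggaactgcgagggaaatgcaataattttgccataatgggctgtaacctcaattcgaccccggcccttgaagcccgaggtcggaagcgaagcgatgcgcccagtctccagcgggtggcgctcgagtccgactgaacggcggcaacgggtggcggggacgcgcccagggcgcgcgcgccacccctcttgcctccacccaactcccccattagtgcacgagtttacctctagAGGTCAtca
Hoxb4: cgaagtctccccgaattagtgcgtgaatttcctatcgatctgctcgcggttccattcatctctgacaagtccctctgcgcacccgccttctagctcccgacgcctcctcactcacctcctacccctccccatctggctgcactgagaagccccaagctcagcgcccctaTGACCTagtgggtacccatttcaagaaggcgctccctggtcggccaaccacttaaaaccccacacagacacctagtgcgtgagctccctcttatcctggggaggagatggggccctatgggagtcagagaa

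The Hoxa2 window held 1 PBX-HOX match, on the minus strand, and 1 MEIS match, and had a GC content of 45.7% with 9 CpG dinucleotides. The Hoxa5 window was the richest of the 3 in CpG, with 29 and a GC content of 61.7%, and held 1 retinoic acid receptor core site after the start. The Hoxb4 window had 14 CpG, a GC content of 58% and 1 retinoic acid receptor core site on the minus strand. Over 32817 promoters of the same length the median was 7 CpG and a GC content of 52.7%. In the same promoters PBX-HOX matches were present in 8.86%, MEIS matches in 19.2% and retinoic acid receptor core sites in 16.3%. A GATA motif, AGATAA, was searched as well and had no match in the 3 windows, and was present in 11.2% of all promoters. A letter match describes the sequence and shows no binding.

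The levels are CPM, read counts rescaled so that libraries of different depth can be compared, which the authors normalized with TMM. The reads counted per library ranged from 10669420 in control replicate 2 to 30469165 in mutant replicate 3, so that 1 read corresponded to between 0.0325 and 0.0948 CPM. Genotypes were compared with limma on log2(CPM + 0.5), a scale that understates the fold changes of genes near 1 CPM, with Benjamini-Hochberg adjustment over all 14608 genes. An exact permutation test, two-sided, was added for single genes, and with 4 libraries against 4 its smallest p is 0.0286. Gata6 RNA did not separate the groups, at 262 ± 18.5 CPM in control and 249 ± 36.1 CPM in mutant libraries (SD, n = 4 each), so the directions given rest on the labels. All 14 cardiomyocyte, 11 cushion mesenchyme and 8 smooth muscle markers examined were in the table. So were all 10 endocardium and endothelium, 9 epicardium, 10 erythroid and 8 macrophage markers. The 7 Hox genes together took from 317 to 1429 reads per library, and their mean levels lay between the 7.78 and 28.1 percentiles of the table, where the median gene was at 26.7 CPM.

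Per length of exon, Hoxb4 was the most abundant member in control libraries at 2.59 CPM per kb, followed by Hoxb2 at 1.93 and Hoxb3 at 1.70 CPM per kb. Lower levels per kb were measured for Hoxa2 (1.43), Hoxa4 (1.41), Hoxa3 (1.15) and Hoxa5 (1.03). The length was that of all annotated exons of a gene combined, 6.01 kb for Hoxa3, and not of the transcripts expressed. Before division by length, Hoxa3 (6.93 CPM) lay above Hoxa2 (2.53 CPM) and Hoxa4 (2.24 CPM) in control libraries. The control ranges of all neighbouring pairs in this order overlapped, so no adjacent pair was separated beyond its spread. In mutant libraries Hoxb4 was again at the top, at 3.71 CPM per kb, and Hoxa5 again at the bottom, at 0.862 CPM per kb.

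**Figure D1:**
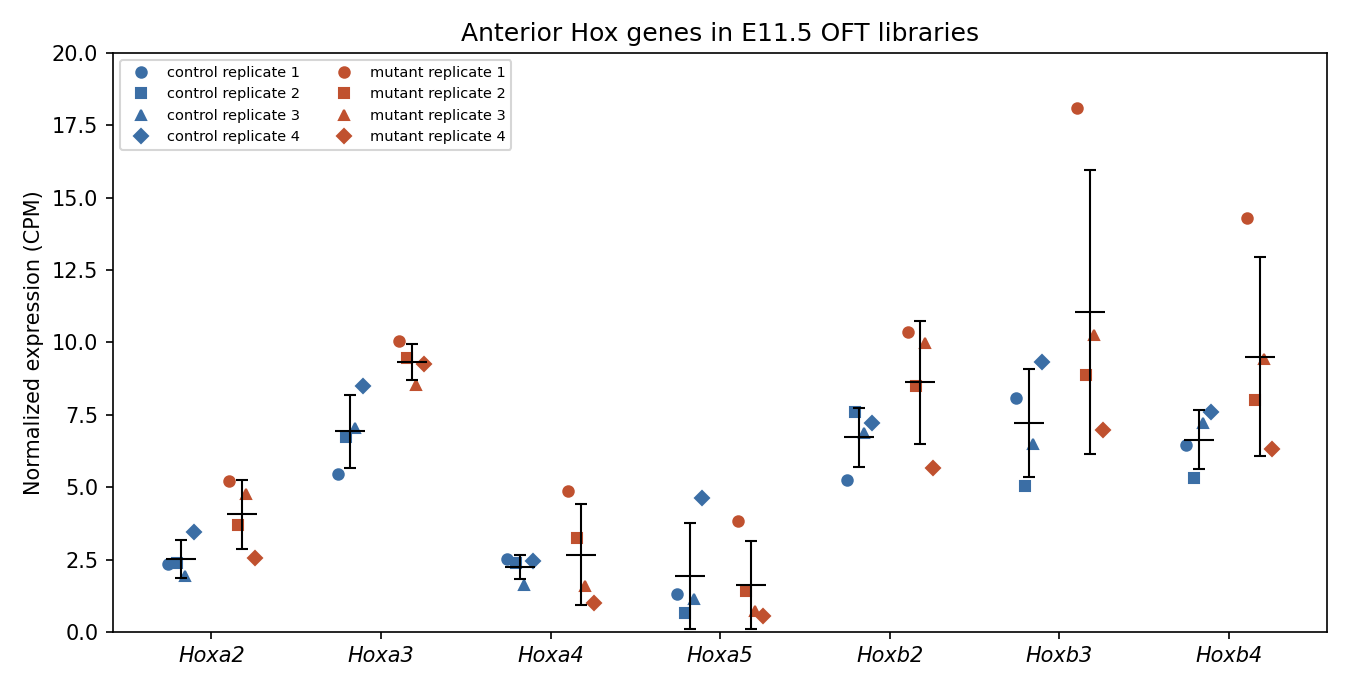
Normalized expression of the 7 anterior Hox genes (CPM, linear axis) in each of the 4 control (blue) and 4 mutant (red) libraries. Symbols mark replicates, and the bars give the mean ± SD of each group. Hoxa3 did not overlap between groups, and mutant replicate 1 stood apart for Hoxb3 at 18.1 CPM and Hoxb4 at 14.3 CPM.

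Hoxa2 (ENSMUSG00000014704) sets the identity of the second pharyngeal arch and patterns its neural crest. Its levels were 2.34, 2.37, 1.94 and 3.47 CPM in the control replicates, 1 to 4, and 5.23, 3.68, 4.78 and 2.55 CPM in the mutant replicates, 1 to 4. The groups overlapped because mutant replicate 4 lay below control replicate 4, while all other mutant libraries were above all controls. Between means of 2.53 ± 0.657 CPM in control and 4.06 ± 1.198 CPM in mutant libraries (SD, n = 4 each), the log2 fold change was 0.57 (standard error 0.22, 95% confidence interval 0.10 to 1.05, limma adjusted p = 0.360, exact permutation p = 0.0571).

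Its paralog Hoxb2 (ENSMUSG00000075588) acts in the hindbrain and in facial motor neurons. Hoxb2 was measured at 5.26, 7.59, 6.86 and 7.21 CPM in control and at 10.4, 8.50, 9.98 and 5.67 CPM in mutant replicates 1 to 4. Mutant replicates 1, 2 and 3 lay above all control libraries, and mutant replicate 4 lay below 3 of the 4. The log2 fold change was 0.31 (standard error 0.18, 95% confidence interval -0.08 to 0.71, limma adjusted p = 0.489, exact permutation p = 0.20), within the spread between libraries.

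Hoxa3 (ENSMUSG00000079560), needed for the thymus, the parathyroid and the carotid artery that arise from the third arch region, had the smallest standard error of the set. Control replicates 1 to 4 were at 5.44, 6.73, 7.06 and 8.48 CPM and mutant replicates 1 to 4 at 10.04, 9.46, 8.52 and 9.25 CPM. The groups did not overlap, and control replicate 4 came to within a few hundredths of a CPM of mutant replicate 3. The mean was 6.93 ± 1.25 CPM in control and 9.32 ± 0.628 CPM in mutant libraries (SD, n = 4 each), and the log2 fold change was 0.42 (standard error 0.13, 95% confidence interval 0.13 to 0.70). Its adjusted p of 0.291 in limma was the lowest of the 7 genes, with an exact permutation p of 0.0286.

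Hoxb3 (ENSMUSG00000048763) shares functions with Hoxa3 in the pharyngeal region. It was at 8.07, 5.03, 6.49 and 9.33 CPM in control and at 18.1, 8.87, 10.3 and 6.97 CPM in mutant replicates 1 to 4. Mutant replicate 1 stood at 1.76 times the highest of the other 7 libraries, and mutant replicates 2 and 4 lay within the control range. The log2 fold change was 0.53 (standard error 0.25, 95% confidence interval -0.02 to 1.08, limma adjusted p = 0.429, exact permutation p = 0.171), and 0.27 without mutant replicate 1.

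In paralog group 4, Hoxb4 (ENSMUSG00000038692), a factor of the cervical skeleton that also acts in blood stem cells, followed Hoxb3. It was at 6.45, 5.31, 7.22 and 7.59 CPM in control and at 14.3, 8.02, 9.43 and 6.32 CPM in mutant replicates 1 to 4. Mutant replicate 1 was again the highest, at 1.51 times the next library, and mutant replicate 4 again fell among the controls. The log2 fold change of 0.44 (standard error 0.21, 95% confidence interval -0.01 to 0.89, limma adjusted p = 0.421, exact permutation p = 0.143) became 0.23 without mutant replicate 1.

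Hoxa4 (ENSMUSG00000000942), which patterns cervical vertebrae, did not follow Hoxb4. Its levels were 2.52, 2.37, 1.61 and 2.47 CPM in control and 4.86, 3.24, 1.59 and 0.990 CPM in mutant replicates 1 to 4. The mutant libraries spread to both sides of the controls, with replicates 1 and 2 above all of them and replicates 3 and 4 below. The mean was 2.24 ± 0.424 CPM in control and 2.67 ± 1.74 CPM in mutant libraries (SD, n = 4 each), and the log2 fold change was 0.05 (standard error 0.33, 95% confidence interval -0.68 to 0.78, limma adjusted p = 0.957, exact permutation p = 1). Leaving out single libraries moved it from -0.26, without mutant replicate 1, to 0.35.

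Hoxa5 (ENSMUSG00000038253), known for its part in the respiratory tract and the cervicothoracic skeleton, was the scarcest member and varied most. It was at 1.30, 0.664, 1.13 and 4.62 CPM in control and at 3.83, 1.40, 0.715 and 0.533 CPM in mutant replicates 1 to 4, from 7 to 120 reads. The highest library was control replicate 4 and the lowest mutant replicate 4, and both groups held high and low libraries. Its log2 fold change was -0.19 (standard error 0.49, 95% confidence interval -1.25 to 0.87, limma adjusted p = 0.889, exact permutation p = 0.714), and 0.25 without control replicate 4.

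**Figure D2:**
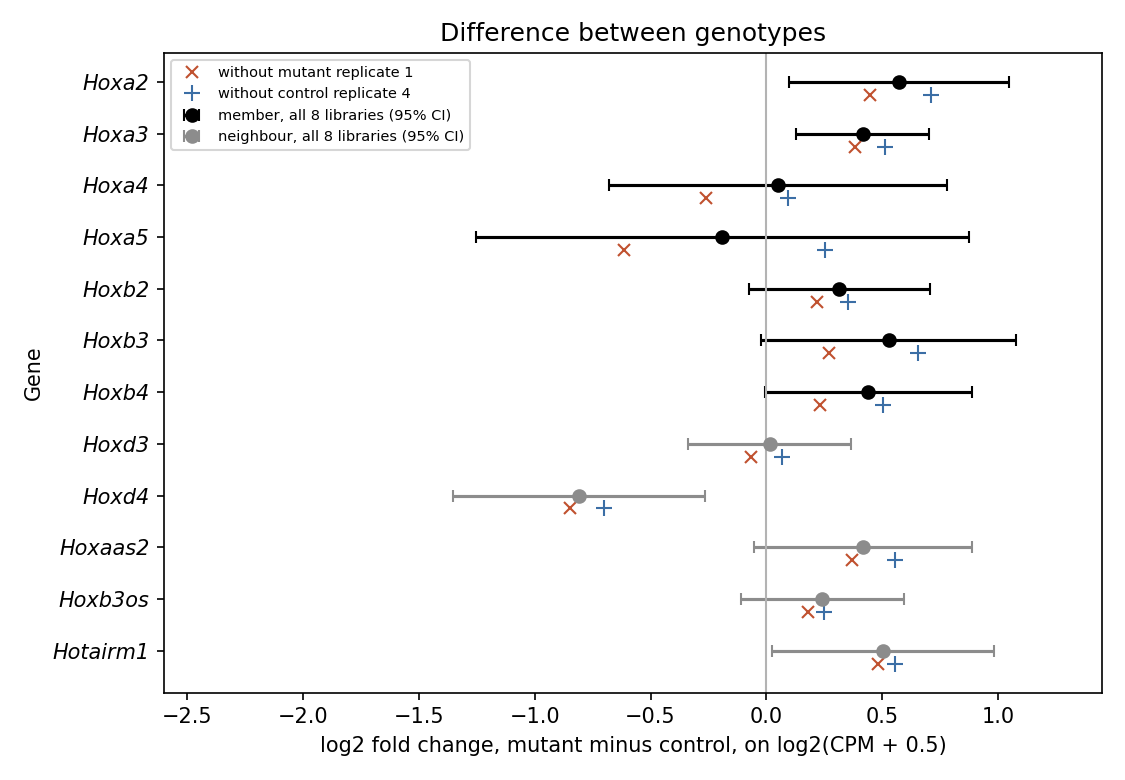
Log2 fold change between mutant and control libraries on log2(CPM + 0.5), with 95% confidence intervals from limma, for the 7 genes (black) and 5 further transcripts of Hox clusters (gray). Crosses give the value without mutant replicate 1 and plus signs the value without control replicate 4, and the crosses of Hoxb3 (0.27) and Hoxb4 (0.23) lie well left of their points.

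Counted over the set, 0 of the 7 genes had an adjusted p below 0.05 in limma, as did 0 of the 14608 genes (0%). Without adjustment, 2 members, Hoxa2 and Hoxa3, were higher at p below 0.05 and 0 were lower, beside 5.45% of all genes that were higher at that level. The groups did not overlap, with mutant libraries higher, for 1 member, Hoxa3, and for 3.2% of all genes. On whole reads recovered from the CPM values, 0 members passed the adjusted threshold in the likelihood ratio test or the quasi-likelihood test of edgeR, or in DESeq2. The members unadjusted and higher then numbered 4 in the likelihood ratio test, beside 5.2% of all genes, 3 in the quasi-likelihood test, beside 5.33%, and 4 in DESeq2, beside 5.26%. Without mutant replicate 4 limma gave 5 such members (4.8% of all genes) and without control replicate 4 it gave 4 (7.31%). It gave 1 without control replicate 3 (3.37%), mutant replicate 1 (5.8%) or mutant replicate 3 (4.9%).

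Mutant replicate 4 was the lowest mutant library for 6 of the 7 genes, all but Hoxa3, whereas the lowest control library differed from gene to gene. Summed over the 7 genes, the control replicates, 1 to 4, measured 31.4, 30.1, 32.3 and 43.2 CPM and the mutant replicates, 1 to 4, measured 66.7, 43.2, 45.3 and 32.3 CPM. Control replicate 4 was the highest of the controls and lay level with mutant replicate 2 and above mutant replicate 4, the lowest of the mutants, so the sums overlapped. In bulk tissue, fewer cells that express a gene and less RNA per cell cannot be told apart. The HoxA genes and the HoxB genes had the same highest library, with mutant replicate 1 at 23.9 CPM for the HoxA sum and 42.8 CPM for the HoxB sum. The other mutant libraries ranged from 13.3 to 17.8 CPM and from 19.0 to 29.7 CPM in the same order, against 11.6 to 19.0 CPM and 17.9 to 24.1 CPM in control libraries.

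For paralog groups 2 and 3, the mean deviation from the gene means on the log2 scale was -0.36, -0.32, -0.31 and 0.07 in the control replicates, 1 to 4, and 0.61, 0.16, 0.32 and -0.18 in the mutant replicates, 1 to 4. Groups 4 and 5 gave -0.07, -0.39, -0.24 and 0.50 in control and 0.99, 0.16, -0.26 and -0.69 in mutant replicates 1 to 4. The low value of mutant replicate 3 in groups 4 and 5 came from Hoxa4 and Hoxa5, since in that library Hoxb4 lay above its mean. These are descriptions of 8 pools, with no test. The median coefficient of variation of the members was 18.9% in control and 36% in mutant libraries, where the 2974 genes in the same range of levels had 17.1% and 17.5%.

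**Figure D3:**
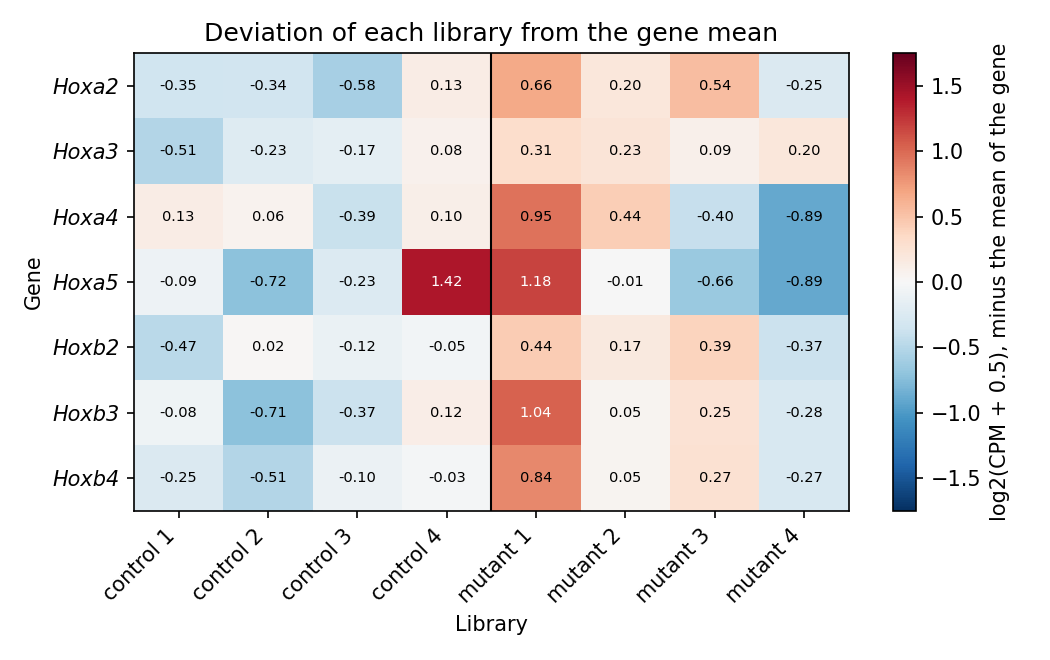
Deviation of each library from the mean of each anterior Hox gene, on log2(CPM + 0.5), with libraries in columns and genes in rows (red above the gene mean, blue below). Mutant replicate 1 is above the mean for all 7 genes, and mutant replicate 4 is below it for 6 of them, all but Hoxa3.

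Only 2 other Hox genes, Hoxd3 and Hoxd4, were in the table. Hoxd3, of paralog group 3, was at 8.10 ± 0.991 CPM in control and 8.30 ± 1.81 CPM in mutant libraries (SD, n = 4 each), with a log2 fold change of 0.01 (limma adjusted p = 0.976, exact permutation p = 0.886). Hoxd4 was at 1.80, 2.18, 2.02 and 2.85 CPM in control and at 1.17, 1.47, 1.33 and 0.419 CPM in mutant replicates 1 to 4. All mutant libraries lay below all control libraries, the opposite direction to Hoxa3, and the log2 fold change was -0.81 (standard error 0.25, limma adjusted p = 0.284, exact permutation p = 0.0286). Of the windows of Hoxd4, 45.6% were shared with Hoxd3 or Gm28230, so the split of reads among these overlapping genes is uncertain.

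Noncoding transcripts of the clusters were low. Hotairm1, a noncoding RNA of the HoxA cluster, was at 0.901, 1.71, 2.10 and 1.81 CPM in control and at 2.57, 2.21, 3.19 and 1.94 CPM in mutant replicates 1 to 4. Only mutant replicate 4 fell within the control range, and the log2 fold change was 0.50 (limma adjusted p = 0.402, exact permutation p = 0.0571). Hoxaas2, antisense at Hoxa3, was at 1.94 ± 0.543 and 2.78 ± 0.821 CPM (SD, n = 4 each, limma adjusted p = 0.452, exact permutation p = 0.143). Hoxb3os, antisense to Hoxb3 and Hoxb2, was at 6.03 ± 0.921 and 7.28 ± 1.48 CPM (SD, n = 4 each, limma adjusted p = 0.548, exact permutation p = 0.314). Mutant replicate 4, low for Hoxb3 and Hoxb2, was the highest library for Hoxb3os, at 8.41 CPM.

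All 9 listed members of the PBX, MEIS and PKNOX families were measured, and 0 passed the adjusted threshold in limma. Without adjustment 1 was higher, beside 5.45% of all genes, and the median log2 fold change was 0.10. The number higher was 0 without control replicate 1 (5.48% of all genes) or mutant replicate 4 (4.8%). It was 2 without mutant replicate 2 (3.64%) and 3 without control replicate 4 (7.31%). Pbx3, the 1 higher gene, was at 76.6 ± 5.31 CPM in control and 88.2 ± 5.39 CPM in mutant libraries (SD, n = 4 each), with a log2 fold change of 0.20 (limma adjusted p = 0.333, exact permutation p = 0.0571). Meis2, expressed in neural crest and OFT, had a log2 fold change of 0.10 (limma adjusted p = 0.509). The lowest of the list were those of Meis1 and Pbx2, at -0.02 and -0.03.

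Of 22 genes of the retinoic acid pathway, 18 were in the table, 0 passed the adjusted threshold in limma, 5 were higher and 0 lower without adjustment, and the median log2 fold change was 0.16. Over all genes 5.45% were higher at that level, and the 5 became 3 without control replicate 1, control replicate 3, mutant replicate 1 or mutant replicate 3 or with the GC trend removed. Aldh1a3, Rbp4, Cyp26a1 and Cyp26c1 were not in the table. Crabp2, which carries retinoic acid to its nuclear receptors, was at 4.68, 3.51, 4.07 and 6.09 CPM in control and at 10.9, 7.87, 6.70 and 5.41 CPM in mutant replicates 1 to 4. As for the Hox sum, mutant replicate 1 was the highest library, control replicate 4 the highest control and mutant replicate 4 the lowest mutant, which overlapped the controls. Its log2 fold change was 0.67 (standard error 0.21, limma adjusted p = 0.276, exact permutation p = 0.0571). Cyp26b1, which degrades retinoic acid, was at 29.8 ± 4.19 CPM in control and 40.6 ± 7.57 CPM in mutant libraries (SD, n = 4 each, log2 fold change 0.43, limma adjusted p = 0.298, exact permutation p = 0.0857), and in mutant replicate 1 it lay among the controls at 30.5 CPM.

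Nrip1, a cofactor of nuclear receptors, had a log2 fold change of 0.19 (limma adjusted p = 0.370). The log2 fold change of Rxrg, a retinoid receptor, was 0.46 (limma adjusted p = 0.402). The remaining gene of the 5, Rdh10, which makes the precursor of retinoic acid and was singled out after its values were seen, was at 8.25, 5.88, 8.87 and 9.90 CPM in control and at 14.9, 10.96, 9.36 and 9.02 CPM in mutant replicates 1 to 4. Rdh10 overlapped through control replicate 4 and mutant replicates 3 and 4.

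Other regulators known to act on Hox genes gave few differences. Of 13 such factors 6 were in the table, and Cdx1, Cdx2, Cdx4, Egr2, Gbx2 and Fgf8 were among those that were not. In that list 0 genes passed the adjusted threshold in limma, 0 were higher and 1 was lower without adjustment, and the median log2 fold change was -0.03. The groups did not overlap for Kat7, a histone acetyltransferase, at 76.2 ± 0.890 and 78.7 ± 0.569 CPM in control and mutant libraries (SD, n = 4 each), with a log2 fold change of only 0.04 (limma adjusted p = 0.754, exact permutation p = 0.0286). All 31 genes of the Polycomb and Trithorax groups, which keep Hox genes off or on, were measured, 0 passed, 1 was higher and 3 were lower without adjustment, with a median log2 fold change of 0.0031. Those shares were below the 5.45% higher and above the 6.62% lower of all genes, and no Polycomb or Trithorax gene was lower without control replicate 2, control replicate 3 or mutant replicate 1, while 4 were higher without control replicate 1 and 5 without control replicate 4. Bmi1, of Polycomb complex PRC1, was the higher gene, at 30.9 ± 4.19 and 39.3 ± 3.96 CPM (SD, n = 4 each, log2 fold change 0.34, limma adjusted p = 0.284, exact permutation p = 0.0571). The lower genes included Kdm6b, a histone demethylase, and Kmt2d, a histone methyltransferase, each with a log2 fold change of -0.21.

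Among 8 reported target genes of anterior Hox proteins, all measured, 0 were higher or lower without adjustment in limma on all libraries. Over all genes 5.45% were higher and 6.62% lower, and the median log2 fold change of the list was 0.14. The number higher was 1 in either edgeR test, with replicate number as a block, or without control replicate 4, mutant replicate 1 or mutant replicate 4. It was 2 with the GC trend removed or without mutant replicate 2, and 1 gene was lower without control replicate 4. Six2, which Hoxa2 represses in the second arch, was at 2.15 ± 0.731 CPM in control libraries, at 17.7 CPM in mutant replicate 1 and at 2.94, 2.80 and 2.13 CPM in mutant replicates 2 to 4 (limma adjusted p = 0.467, exact permutation p = 0.257). Its mutant mean thus rested on the library in which most of the Hox genes were highest. Meox1, a homeobox gene of somites, had a log2 fold change of 0.19 (limma adjusted p = 0.4375), with the lowest mutant level in that same replicate.

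Of the marker lists of other cells, 0 genes passed the adjusted threshold in limma, and the sums of the second heart field and cardiomyocyte lists did not overlap between groups. The 6 of 10 listed markers of the second heart field and pharyngeal mesoderm that the table holds summed to between 73.9 and 88.7 CPM in control libraries. In mutant libraries they summed to between 103 and 123 CPM, highest in mutant replicate 1. Of the 6, 3 (Isl1, Tbx1 and Eya4) were higher without adjustment, beside 5.45% of all genes. Fgf8, Msc and Lhx2 were among those of that list that were not in the table. The 14 cardiomyocyte markers summed to between 28990 and 34040 CPM in control and between 22920 and 27050 CPM in mutant libraries, and 13 of them were lower without adjustment, beside 6.62% of all genes. In the likelihood ratio test on recovered reads 7 of the 14 passed the adjusted threshold. In the other lists, 2 of the 6 second heart field markers and 1 of the 7 neuron and glia markers passed it, as did 107 of all genes. For neurons and glia, 7 of 12 markers were present, with sums of 49.3 to 58.8 CPM in control and 58.7 to 68.6 CPM in mutant libraries. Without adjustment 2 of the 7 were higher and 0 lower, beside 5.45% of all genes that were higher. For 2 of the 7, Elavl4 and Stmn2, all mutant libraries lay above all controls, beside 3.2% of all genes. Phox2a and Prph were among those not in the table. The sums of the 9 neural crest markers in the table, of 12, overlapped, at 486 to 607 CPM and 447 to 572 CPM in the same order. The part of these cell types in the levels of the Hox genes was not tested.

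The sums of further lists overlapped between groups. The 6 lung and foregut mesenchyme markers in the table, of 9 and with Hoxa5 among them, summed to 29.4 to 34.5 CPM in control and 22.1 to 39.9 CPM in mutant libraries. Of 12 pharyngeal endoderm and epithelium markers 3 were in the table, and Epcam, Cdh1, Foxa1, Foxa2, Shh and Nkx2-1 were among those that were not. Of 8 somite and skeletal muscle markers 2 were present, Myod1 and Myog not among them. Cushion mesenchyme (2056 to 2345 against 2013 to 2443 CPM), endocardium and endothelium (1013 to 1252 against 1023 to 1134 CPM), smooth muscle (3314 to 3804 against 3056 to 3784 CPM) and epicardium (407 to 531 against 388 to 666 CPM) overlapped between control and mutant libraries. The smooth muscle sum was mostly Acta2 and Tagln. Of its 8 genes 2 were higher and 3 lower without adjustment, beside 5.45% and 6.62% of all genes. The sums also overlapped for erythroid cells (1808 to 3692 against 1516 to 5653 CPM) and macrophages (49.2 to 58.6 against 47.4 to 64.8 CPM). Lower without adjustment were 3 of 10 endocardium and endothelium, 2 of 8 macrophage, 1 of 11 cushion mesenchyme and 1 of 9 epicardium markers, with 0 higher in these lists. Of the 6 lung and foregut mesenchyme markers, 1 was higher and 0 were lower.

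**Figure D4:**
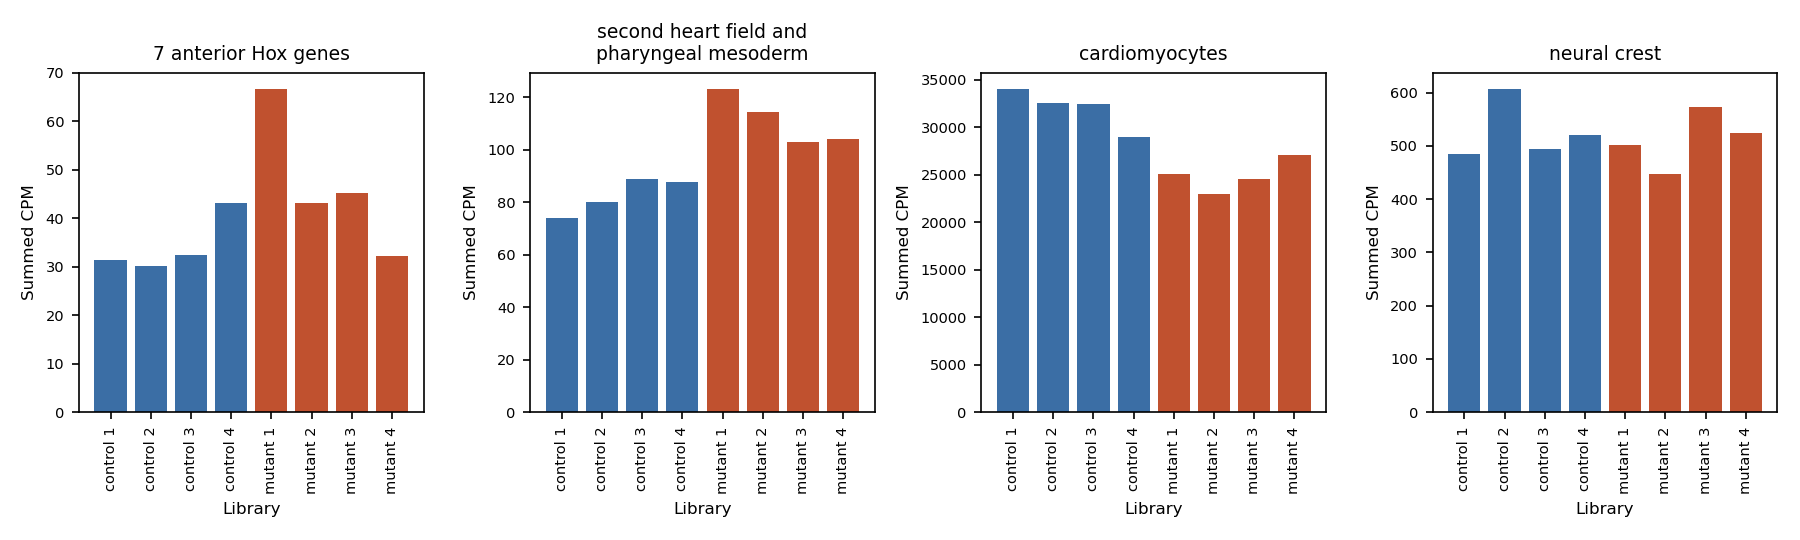
Summed CPM per library (bars from 0) of the 7 anterior Hox genes and of 3 marker lists, with control libraries in blue and mutant libraries in red. The sums of the second heart field and cardiomyocyte lists do not overlap between groups, whereas the Hox sum of mutant replicate 4 (32.3 CPM) lies among the controls.

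Genes whose names start with Hox or Hotair were left out of the search for similar profiles. Among the rest, the centred log2 profiles over the 8 libraries nearest to the mean member profile belonged to 5 near-identical ribosomal protein copies. These copies, Rpl35a-ps3, Rpl35a-ps6, Rpl35a-ps4, Rpl35a-ps2 and Gm10243, had identical values in every library and shared their reads. Their root mean square difference from the Hox profile was 0.141 on the log2 scale. With identical profiles counted once, a step chosen after seeing the data, Sept3, a neuronal septin, came next at 0.147, with 7.42, 7.02, 6.66 and 8.86 CPM in control and 15.5, 8.87, 9.04 and 8.15 CPM in mutant replicates 1 to 4. Sept3, picked for its likeness to the Hox profile, had its highest library in mutant replicate 1. Only mutant replicate 4 fell within its control range, with mutant replicate 2 barely above control replicate 4. C230035I16Rik (0.167), Gm49971 (0.168) and Cd83 (0.169) completed the 5. With profiles centred within each genotype, and Hox names again left out, Crabp2 was the nearest gene, at 0.0907.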

How the data were processed

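Poly(A) RNA from E11.5 OFT was sequenced in 4 control and 4 mutant libraries, prepared with a directional kit. The authors trimmed the 60 bp reads with cutadapt, quantified genes with RSEM over GRCm38, set a minimum of 1 CPM in 3 or more samples and deposited TMM-normalized CPM. Sample groups follow the genotype label, and 0 columns were left out. Reads on the listed genes ranged from 10669420 to 30469165 per library. All values were whole multiples of 1 read within 0.01, and those recovered reads served only for alternatives.

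Genotypes were compared by lmFit and trended eBayes of limma 3.58.1 (R 4.3.3) on log2(CPM + 0.5), two-sided, with Benjamini-Hochberg adjustment over 14608 genes and a threshold of 0.05. Single genes also had an exact permutation test over the 70 relabellings. Alternatives were edgeR 4.0.16 and DESeq2 1.42.0 on recovered reads, pseudocounts of 0.1 and 2, a mean of at least 5 CPM, other scalings, removal of the GC trend, a replicate block and leaving out each library. The scripts were tested on simulated data. A few genes that the pattern or the lists hold are not reported here. The members and gene lists were chosen with earlier results of these data known. The rule for named genes took every member, the other Hox genes, antisense transcripts of the clusters, TALE cofactors, Gata6 and Mib1. It also took up to 4 genes per further list with the smallest limma p, and the 5 nearest profiles among genes with no Hox name. Hotairm1 and Rdh10 were added after their values were seen. Mib1 RNA was at 122 ± 15.6 and 128 ± 6.62 CPM in control and mutant libraries (SD, n = 4 each). Identifiers were placed with GENCODE M21 (14600 of 14608 found). Motif letters were searched on both strands of RefSeq promoters.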

Additional observations from a re-analysis of the deposited data

Results flagged for a closer look

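Within groups of 4 libraries, a library was singled out where its gap to the nearest other library, as a share of the range of the group, exceeded Dixon's 95% critical value, which by chance happens in about 1 in 20 groups. Of 90 groups (45 genes in 2 genotypes), 5 held such a library. Among the Hox genes, Hoxa5 in control replicate 4 stood at 4.62 CPM, above the other controls, and Hoxa4 in control replicate 3 stood at 1.61 CPM, below them. Six2 in mutant replicate 1 was at 17.7 CPM, far above the other mutant libraries, and Meox1 in the same library was at 105 CPM, below them. Meis2 in control replicate 4 was at 207.8 CPM, above the other controls.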

How the results depend on the processing

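In limma the number of genes past the threshold was 0 and the number of members past it was 0 under every pseudocount, filter, scaling, GC and leave-one-out setting run. On recovered reads, genes past the threshold numbered 192 in DESeq2, 0 in edgeR's quasi-likelihood test and 107 in its likelihood ratio test. In repeats of the latter, added after seeing the data, the number was 51, 46, 24 and 209 without control replicates 1, 2, 3 and 4 and 142, 89, 38 and 144 without mutant replicates 1, 2, 3 and 4. No member passed in any of them, and DESeq2 gave Hoxa5 no adjusted p. Members higher without adjustment numbered 4 in the likelihood ratio test (5.2% of all genes tested) and between 1 and 5 in its repeats (3.1% to 7% of all genes), 3 in the quasi-likelihood test (5.33%), 4 in DESeq2 (5.26%), 5 with the GC trend removed (4.93%), 1 under the filter at a mean of 5 CPM (5.73%), where fewer members are tested, and between 1 and 5 in limma with 1 library left out (3.08% to 7.31%). The median log2 fold change of the members ran from 0.23 without mutant replicate 1 to 0.50 without control replicate 4. Hoxa4 changed sign without control replicate 3 (-0.07), mutant replicate 1 (-0.26) and mutant replicate 2 (-0.09), with 0.35 at the other end, and Hoxa5 did without control replicate 4 (0.25) and mutant replicate 4 (0.07), with -0.61 at the other end. The other 5 members kept their direction under all alternatives run. With the replicate number as a block (replicate block), 3 members were higher without adjustment (3.83% of all genes), 2 retinoic acid genes were, and 0 members passed the threshold, but the numbers did not pair the libraries, since the correlations of same-numbered deviations were 0.0349, -0.185, 0.0268 and -0.0454 and 0 of 4 controls correlated best with their own number. The causes of these shifts were not tested. The smallest member, Hoxa5, rested on 7 reads in control replicate 2.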
